A study of Mus musculus with 2 samples.

Results

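T cell receptor (TCR) beta chain segment usage was measured in T cells that infiltrated mouse melanomas. Members were cell barcodes with a productive beta chain (TRB) contig in the filtered TCR table, with 1 chain taken per barcode by most UMIs (unique molecular identifiers, which count captured molecules). Each barcode also had to hold 200 to 2500 detected genes and under 5% mitochondrial UMIs in the expression library, and to fall in 1 of 3 lineages. CD8 cells had more UMIs of Cd8a and Cd8b1 than of Cd4 and Foxp3, Treg cells had Foxp3 and no CD8 gene, and Tconv cells had Cd3e and neither Foxp3 nor a CD8 gene. In all, 4372 of the 7857 barcodes in the TCR table were members: 895 CD8, 1445 Treg and 2032 Tconv cells. They held 4073 distinct clonotypes, groups of cells that Cell Ranger gave the same receptor chains, of which 769 were found in CD8, 1404 in Treg and 1944 in Tconv cells. Of the remaining barcodes with a productive TRB contig, 2220 were absent from the expression library or failed its limits. Another 545 met the limits but fell in no lineage.

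The cells came from C57BL/6J mice that carried either the B16 melanoma line or B16–IL-33, a B16 line engineered to overexpress secreted IL-33, an alarmin that acts on ST2+ T cells among others. T cells were sorted by flow cytometry, labelled with hashtag antibodies for their tumor and pooled before loading. A single pool was read as 1 expression library of the 5′ end of transcripts, 1 hashtag library and 1 TCR library. No value here therefore has a known biological replicate, and none was tested across animals. Each tumor had 2 hashtag labels, but the labels name no animal. A single engineered line stands for IL-33 expression.

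A beta chain gene is assembled in the thymus by joining 1 variable (V), 1 diversity (D) and 1 joining (J) segment, and the joint encodes CDR3, the loop that contacts the peptide presented by MHC. CD8 T cells are selected on MHC class I, whereas Treg cells and most CD4 Tconv cells are selected on MHC class II. The V segment also encodes the CDR1 and CDR2 loops, which lie over the MHC helices in most known complexes. In the mouse the D and J segments form a pair of clusters (Trbd1 with the Trbj1 genes, Trbd2 with the Trbj2 genes), each followed by its constant gene. Trbv31 lies beyond the second constant gene in the opposite direction.

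The members used 21 V segments and 12 J segments. The germline ends of 6 V segments whose usage differed between lineages are given here, since they fix the first residues of CDR3 and separate segments that are close in sequence. Each is the last 30 bases of the coding exon from GENCODE vM21 (GRCm38), on the plus strand, with capitals marking the bases that lie in CDR3.
Trbv12-1 (chr6:41113550-41114067): tctgctatgtacttcTGTGCCAGCTCTCTC
Trbv12-2 (chr6:41118851-41119364): tctgccgtgtacttcTGTGCCAGCTCTCTC
Trbv13-2 (chr6:41121396-41121832): catcagtgtacttcTGTGCCAGCGGTGATG
Trbv19 (chr6:41178375-41179048): tggccgtttttctcTGTGCCAGCAGTATAG
Trbv1 (chr6:40891229-40891885): cagaaccttgtacTGCACCTGCAGTGCAGA
Trbv20 (chr6:41188273-41188977): cagaggcttatatctcTGTGGTGCTAGGGA
The coordinates are those of the whole V gene. Trbv12-1 and Trbv12-2 give CDR3 the same 15 bases, so CDR3 alone could not tell them apart. The D segments and the CDR3 parts of the J segments named most often below were the following.
Trbd1 (chr6:41533201-41533212): gggacagggggc
Trbd2 (chr6:41542163-41542176): gggactgggggggc
TRBJ2-2 (chr6:41542957-41543007): caaacaccgggcagctctacttt
TRBJ2-3 (chr6:41543223-41543271): agtgcagaaacgctgtatttt
TRBJ2-7 (chr6:41543810-41543856): ctcctatgaacagtacttc

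The lineage labels were compared with markers of each lineage. Among members, Cd3e had a UMI in 94.9% of CD8, 92.7% of Treg and, by the rule, 100% of Tconv cells. Ctla4 and Ikzf2, which Treg cells express, had a UMI in 82.6% and 84.2% of Treg cells, against 34.7% and 31.6% of Tconv cells. Cd4 had a UMI in 48.3% of Tconv, 56.8% of Treg and 7.26% of CD8 cells, so about as many Tconv cells lacked a Cd4 UMI as had one. Foxp3 had a UMI in 7.37% of CD8 cells. Markers of B cells (3 genes) and of dendritic cells (Flt3 and Xcr1) each had a UMI in at most 0.623% of the cells of any lineage. For macrophages Lyz2 reached 4.92% and Cd68 8.38%, both in CD8 cells, for melanoma Dct reached 2.57% in CD8 cells, and in Tconv cells Tcrg-C1 of gamma-delta T cells reached 1.48% and Klrb1c of NK cells 2.61%. The part of these cells in the results was not tested. A productive TRB chain was recovered in 71.0% of kept CD8 cells, 55.4% of Treg and 58.8% of Tconv cells, with a median of 4078, 3386 and 2697 UMIs per cell among those that had one. The chosen contigs had a median of 5 UMIs (range, 1 to 45), 215 members rested on 1 UMI, and 385 members had 2 productive TRB contigs.

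The V names were compared with a second readout of the same cells, the Trbv transcripts in the expression library. Of 4372 members, 97 had no Trbv UMI and 228 had a tie. In the 4047 cells with 1 leading Trbv gene, that gene had the contig's V name in 95.1% (95% interval, 94.4 to 95.8), with a joined entry described next read as Trbv13-2. It was 97.4% (96.8 to 97.9) with cells named TRBV10 read as Trbv4 as well. Both readings rest in part on these same transcripts, so agreement for those names is no separate check. Trbv12-1 led in 67 of 67 TRBV12-1 cells, Trbv12-2 in 130 of 133 TRBV12-2 cells and Trbv19 in 251 of 253 TRBV19 cells. TRBV10 aside, the lowest agreement was for TRBV5 with 85.6%, and 71 of its 320 cells had no Trbv UMI. The table also holds an entry that joins TRBV12-2 and TRBV13-2 in 1 name. Trbv13-2 led the transcripts in 457 of 469 such cells, and 486 of 495 had a CDR3 that began with the Trbv13-2 bases tgtgccagcg, so they were counted as TRBV13-2. Cells named TRBV10 had Trbv4 as the leading gene in 91 of 100 cases and Trbv10, a pseudogene in the annotation, in 0 of 100. The name TRBV10 is kept below as the table gives it.

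Over all members, CD8 cells used the TRBV12 family and TRBV19 more often, and TRBV1, TRBV3, TRBV13-2, TRBV20 and TRBV31 less often, than Tconv cells. Each clonotype was counted once per lineage, and 19 V segments with at least 20 clonotypes over the pair of lineages were compared. Shares carry exact Clopper-Pearson intervals, differences square-and-add intervals and ratios exact conditional binomial intervals, each at 95%. These cover counting error only, and not the spread between mice. Between CD8 and Tconv cells 9 of 19 segments (47.4%) were past 1.5-fold in either direction, and 8 of the 9 had an interval of the difference that left out 0. Between CD8 and Treg cells 10 of 19 (52.6%) were past 1.5-fold and 7 of them had such an interval. Between Treg and Tconv cells 3 of 19 (15.8%) were past 1.5-fold and 0 of them had such an interval. The distance between a pair of usage profiles, the sum of the absolute differences divided by 2, was 18.1 percentage points for CD8 and Tconv, 21.1 for CD8 and Treg and 9.79 for Treg and Tconv.

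TRBV12-2 had the largest difference between CD8 and Tconv cells, as points and as a ratio. It was used by 61 of 769 CD8 clonotypes (7.93%; interval, 6.12 to 10.1), 31 of 1404 Treg (2.21%; 1.51 to 3.12) and 42 of 1944 Tconv clonotypes (2.16%; 1.56 to 2.91). The CD8 share was 3.67 times the Tconv share (2.44 to 5.58) and 3.59 times the Treg share (2.30 to 5.73), whereas the Treg and Tconv intervals overlapped almost fully. TRBV12-1, whose germline CDR3 end is identical, was used by 3.25% of CD8, 0.783% of Treg and 1.23% of Tconv clonotypes. Its CD8 share was 2.63 times the Tconv share (1.44 to 4.82) and 4.15 times the Treg share (1.97 to 9.34). Together the TRBV12 family took 11.2% of CD8, 2.99% of Treg and 3.40% of Tconv clonotypes.

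TRBV19 was used by 72 CD8 clonotypes (9.36%; 7.40 to 11.6), 65 Treg clonotypes (4.63%; 3.59 to 5.86) and 120 Tconv clonotypes (6.17%; 5.14 to 7.34). The CD8 minus Tconv difference was 3.19 percentage points (0.907 to 5.69) and the CD8 minus Treg difference 4.73 (2.41 to 7.24). Against the 951 Tconv clonotypes with a Cd4 UMI, of which 7.57% used TRBV19, the CD8 difference fell to 1.79 points and its interval included 0 (-0.92 to 4.58). In cells with 200 to 1000 detected genes the order was reversed, with overlapping intervals. There TRBV19 took 3.52% of CD8 (1.15 to 8.03) and 5.63% of Tconv clonotypes (4.12 to 7.49). TRBV13-1 was used by 6.89% of CD8, 4.49% of Treg and 5.45% of Tconv clonotypes. Its CD8 to Treg ratio was 1.54 (1.05 to 2.25), and its CD8 minus Tconv difference was within counting error (-0.577 to 3.69).

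TRBV13-2 was the most used V segment of Treg and Tconv cells. It was carried by 15.1% of Treg clonotypes (13.3 to 17.1) and 13.3% of Tconv clonotypes (11.8 to 14.9), but by 8.58% of CD8 clonotypes (6.70 to 10.8), where TRBV16 (10.4%) and TRBV19 ranked above it with intervals that overlapped its own. The CD8 share was 0.644 times the Tconv share (0.484 to 0.847) and 0.568 times the Treg share (0.424 to 0.753). With the joined entry kept apart, which leaves 72 cells named TRBV13-2 alone, the CD8 minus Tconv difference was -0.87 points (-1.70 to 0.18) in place of -4.74. TRBV13-3 was used by 2.86% of CD8, 5.06% of Treg and 4.32% of Tconv clonotypes, and its CD8 share was beyond counting error below the Treg share only. TRBV1 was used by 4.94% of CD8 clonotypes (3.52 to 6.72), 10.6% of Treg clonotypes (9.05 to 12.3) and 8.13% of Tconv clonotypes (6.95 to 9.43). It was the single V segment whose Treg minus Tconv interval left out 0 (2.48 points; 0.449 to 4.58), and with lineages called from at least 2 UMIs this difference was 1.52 points (-0.75 to 3.96).

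TRBV3, TRBV20 and TRBV31 were low in CD8 cells against Tconv but not beyond counting error against Treg. The first was used by 5.85% of CD8, 8.19% of Treg and 9.47% of Tconv clonotypes. The second, TRBV20, was used by 4.03%, 5.27% and 6.89%, in the same order. Of the 134 Tconv clonotypes with TRBV20, 29 carried a joint described below that was found in 0 of 31 in CD8 cells. TRBV31, the inverted segment beyond the constant genes, was used by 3.12%, 4.13% and 5.45%. Their CD8 to Tconv ratios were 0.618 (0.436 to 0.861), 0.585 (0.382 to 0.870) and 0.572 (0.351 to 0.898). Against Tconv with a Cd4 UMI the TRBV31 difference was within counting error (-1.82 points; -3.75 to 0.15).

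Other common segments did not separate the lineages beyond counting error. TRBV16 was used by 10.4% of CD8, 8.76% of Treg and 8.49% of Tconv clonotypes, TRBV5 by 7.93%, 8.12% and 6.48%, and TRBV15 by 5.20%, 4.91% and 4.53%. The intervals of the CD8 minus Tconv differences of these segments reached from -1.11 to 4.58 points at the widest. Past 1.5-fold but within counting error were TRBV10, TRBV17 and TRBV29 (CD8 to Treg ratios of 1.70, 1.71 and 1.53) and TRBV13-3 (CD8 to Tconv, 0.662). The same held for TRBV14 (1.53), TRBV12-1 (0.635) and TRBV17 (0.583) between Treg and Tconv. TRBV23 and TRBV30 had too few clonotypes to compare, at 0.260% to 0.910% of a lineage.

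**Figure D1:**
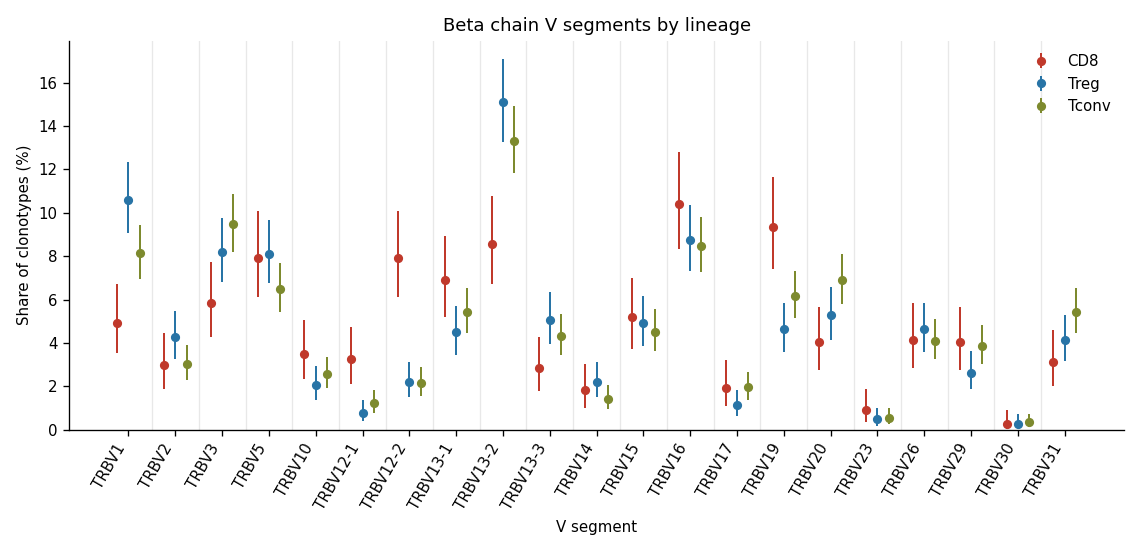
Share of clonotypes (%, y axis) that used each V segment (x axis, in order of name) in CD8, Treg and Tconv cells of 1 pool. Points are shares and bars 95% Clopper-Pearson intervals for counting error; the CD8 points for TRBV12-2 (7.93%) and TRBV12-1 (3.25%) lie above those of both other lineages, and the CD8 point for TRBV13-2 (8.58%) lies below them.

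J usage differed less between the lineages than V usage did. TRBJ2-7 was the most used J segment of each lineage, with 20.03% of CD8 clonotypes (17.3 to 23.0), 17.4% of Treg (15.4 to 19.5) and 18.1% of Tconv (16.4 to 19.8). Between CD8 and Tconv cells 2 of 12 J segments (16.7%) were past 1.5-fold. Between CD8 and Treg cells, and between Treg and Tconv cells, 0 of 12 (0%) were. TRBJ2-2 was used by 4.03% of CD8 and 7.05% of Tconv clonotypes, a difference of -3.02 points (-4.79 to -1.04), with Treg between them at 5.98%. TRBJ2-3 was used by 11.1% of CD8 and 7.36% of Tconv clonotypes, a difference of 3.70 points (1.23 to 6.38), with Treg again between them at 8.55%. TRBJ1-4 was used by 5.72% of CD8 and 8.08% of Tconv clonotypes (-2.35 points; -4.37 to -0.135), a difference that was within counting error with contigs of at least 2 UMIs or lineages called from at least 2 UMIs. The other common J segments were TRBJ2-5, TRBJ2-4, TRBJ1-1, TRBJ2-1, TRBJ1-3 and TRBJ1-2, between 4.42% and 13.0% of a lineage, with intervals of their differences that included 0. The TRBJ2 cluster took 67.9% of CD8, 65.1% of Treg and 64.3% of Tconv clonotypes, and these shares did not differ beyond counting error (CD8 minus Tconv, 3.58 points; -0.458 to 7.53).

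**Figure D2:**
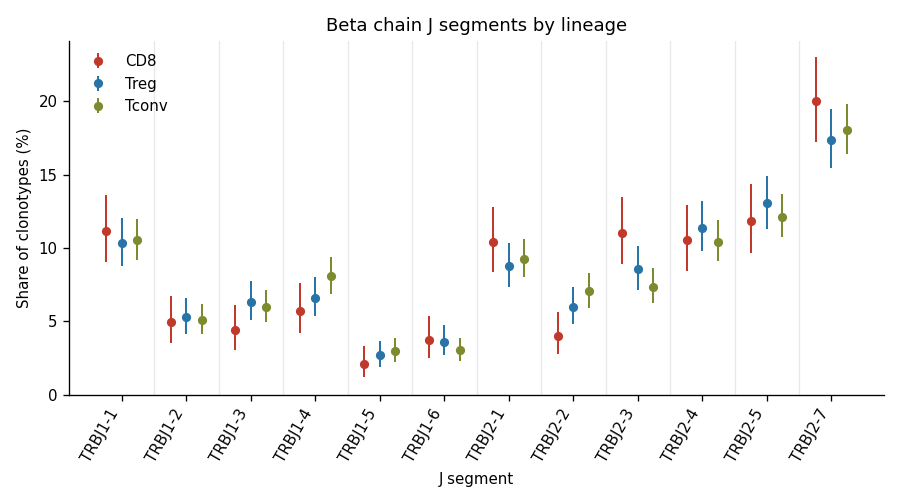
Share of clonotypes (%, y axis) that used each J segment (x axis) in CD8, Treg and Tconv cells, with 95% Clopper-Pearson intervals. TRBJ2-7 leads in each lineage (17.4% to 20.03%), and the CD8 point lies below Tconv for TRBJ2-2 (4.03% against 7.05%) and above it for TRBJ2-3 (11.1% against 7.36%).

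Counting cells in place of clonotypes changed little. Cells of 1 clone share 1 rearrangement, so intervals for shares of cells, which would treat cells as independent, are not read here. Among segments with at least 20 clonotypes in a lineage, the share of cells was 0.859 to 1.26 times the share of clonotypes in CD8 cells, 0.957 to 1.24 times in Tconv cells and 0.972 to 1.04 times in Treg cells, and 0 were past 1.5-fold. Clonotypes of 2 or more cells made up 9.36% of CD8, 2.49% of Treg and 3.09% of Tconv clonotypes, and the largest clones held 13, 4 and 6 cells. In CD8 cells TRBV15 went from 5.20% of clonotypes to 6.48% of cells, and without its 13-cell clone to 5.10%. TRBV26 went from 4.16% of clonotypes to 5.25% of cells, and without its 8-cell clone to 4.40%. Below the limit of 20 clonotypes, TRBV30 had 2 CD8 clonotypes, 1 of which held 5 of its 6 cells.

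The CDR3 nucleotide sequences of 2 of the largest clones of each lineage are given to show what a beta rearrangement of an expanded clone looked like. Capitals mark the middle, the bases that match neither the V nor the J germline end.
CD8, TRBV15 with TRBJ2-1 (13 cells): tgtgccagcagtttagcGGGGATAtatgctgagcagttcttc
CD8, TRBV26 with TRBJ2-5 (8 cells): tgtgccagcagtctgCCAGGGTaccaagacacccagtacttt
Tconv, TRBV13-2 with TRBJ1-3 (6 cells): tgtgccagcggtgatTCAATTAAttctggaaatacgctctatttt
Tconv, TRBV16 with TRBJ2-7 (5 cells): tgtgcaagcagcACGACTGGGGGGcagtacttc
Treg, TRBV3 with TRBJ2-2 (4 cells): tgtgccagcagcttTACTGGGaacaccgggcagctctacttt
Treg, TRBV20 with TRBJ2-1 (3 cells): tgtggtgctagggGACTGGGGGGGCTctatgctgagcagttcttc
Second place was shared by 4 Treg clones of 3 cells and 3 Tconv clones of 5 cells, of which the clone with most contig UMIs is shown. The middles held 7 to 13 bases, and 4 of the 6 matched at least 5 bases of a D segment. Some of these chains were in several clonotypes: the TRBV15 sequence of the largest clone was found in 19 cells of 5 clonotypes, with 3 distinct alpha chains. Counted by V, J and CDR3 nucleotides in place of clonotypes, the CD8 minus Tconv difference of TRBV12-2 was 5.57 points (3.53 to 7.91), close to the 5.77 (3.81 to 7.995) by clonotype.

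CDR3 was slightly longer in CD8 cells, with fewer short loops. Its length was 14.01 ± 1.32 residues (SD, n = 769 clonotypes) in CD8, 13.74 ± 1.43 (n = 1404) in Treg and 13.82 ± 1.42 (n = 1944) in Tconv cells, with a median of 14 in each. Loops of 12 or fewer residues made up 11.6% of CD8 (9.40 to 14.05), 18.9% of Treg (16.9 to 21.1) and 16.3% of Tconv clonotypes (14.6 to 17.97). The CD8 minus Treg difference was -7.37 points (-10.4 to -4.18) and the CD8 minus Tconv difference -4.68 points (-7.45 to -1.73). Against Tconv clonotypes with a Cd4 UMI this last interval included 0 (-6.40 to 0.16). The Treg share was 2.69 points above the Tconv share, with an interval that began at 0.041 and included 0 under 6 of the 8 alternatives per clonotype that changed its value. Loops of 14 residues made up 36.3% of CD8, 27.5% of Treg and 30.5% of Tconv clonotypes. Loops of 16 or more residues made up 10.3%, 8.90% and 9.67%, which did not differ beyond counting error.

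Length varied with the J segment: the mean went from 13.2 residues with TRBJ2-7 to 14.5 with TRBJ2-2 and TRBJ1-3. CD8 CDR3s were longer than those of Tconv cells with 10 of the 12 J segments, from -0.278 to 0.393 residues, and with 14 of 20 V segments. At the J usage of Tconv cells the CD8 mean stayed at 14.01 residues, and at their V usage it was 13.98, against 13.82 in Tconv cells. The V part of CDR3 held 13.7 to 13.8 bases in each lineage. The J part held 18.27 bases in CD8, 18.10 in Treg and 18.32 in Tconv clonotypes. The middle held 10.0 ± 3.83 bases (SD) in CD8, 9.35 ± 3.998 in Treg and 9.43 ± 3.86 in Tconv clonotypes. Middles of 3 or fewer bases were found in 3.64% of CD8 (2.43 to 5.22), 6.34% of Treg (5.12 to 7.74) and 5.50% of Tconv clonotypes (4.53 to 6.61). TRBV20 was among the V segments that went the other way, with 12.8 residues in 31 CD8 clonotypes and 13.8 in Tconv clonotypes. Without the joint described below, the mean of the other 105 Tconv TRBV20 clonotypes was 13.4 residues.

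**Figure D3:**
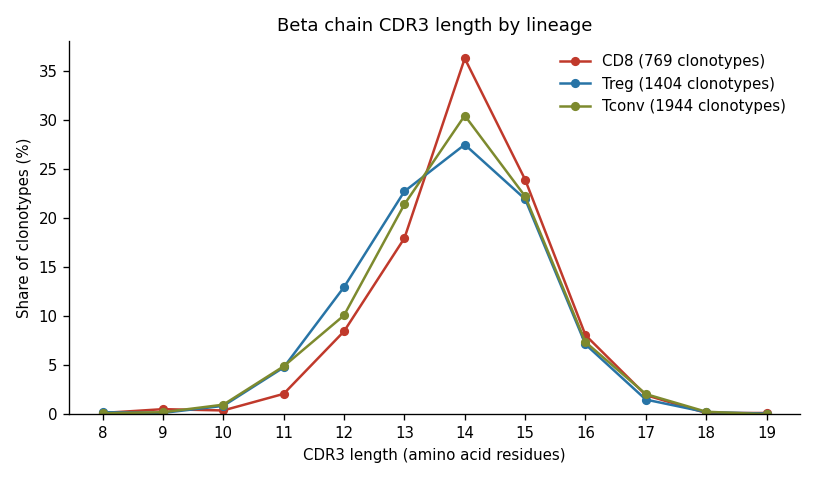
Share of clonotypes (%, y axis) at each CDR3 length in amino acid residues (x axis) in CD8, Treg and Tconv cells. Each line peaks at 14 residues (36.3%, 27.5% and 30.5%), and the CD8 line lies below the others at 11 and 12 residues.

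The D and constant segments could be read only in part. The table names a D segment in 0 of 19026 contigs, TRBC1 in 3527 of 3615 TRBJ1 contigs and no constant gene in 7501 TRBJ2 contigs. TRBC2 was named in no contig, so the names say nothing of its share. In the expression library Trbc1 took 54.5% of the Trbc UMIs of TRBJ1 cells, and Trbc2 the other 45.5%. In TRBJ2 cells Trbc1 took 20.1% and Trbc2 79.9%. These UMIs were counted per cell and are not tied to the chosen chain. They therefore cannot show whether a chain departs from the order of the locus. A match of at least 5 bases to a D segment, searched in the middle, was found for Trbd2 in 4.19% of 1431 TRBJ1 chains and 45.5% of 2686 TRBJ2 chains. Trbd1, which lies before both J clusters, was matched in 55.6% of TRBJ1 and 26.9% of TRBJ2 chains. Trbd2 lies beyond the Trbj1 genes on the chromosome. How often 5 bases match a D segment that is not in the chain was not measured, so the 4.19% is not read as a departure.

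V and J segments paired broadly: 240 of 252 possible pairs were seen. Over the lineages together 150 pairs had at least 10 clonotypes, and their counts were 0.501 to 2.44 times the product of the V and J shares, with 19 pairs at 1.5 or more. TRBV5 with TRBJ1-5 was seen in 20 clonotypes against a product of 8.19. In Treg cells the 3 highest ratios were those of TRBV5 with TRBJ1-5 (11 clonotypes, 3.57 times), TRBV16 with TRBJ1-3 (25, 3.21 times) and TRBV20 with TRBJ2-2 (11, 2.48 times). In Tconv cells the 5 highest were those of TRBV2 with TRBJ1-1 (16 clonotypes, 2.57 times), TRBV20 with TRBJ2-4 (32, 2.29 times), TRBV15 with TRBJ2-2 (14, 2.26 times), TRBV16 with TRBJ1-3 (22, 2.23 times) and TRBV20 with TRBJ2-2 (19, 2.01 times). In CD8 cells 9 pairs had at least 10 clonotypes, led by TRBV5 with TRBJ2-3 at 1.78 times. These ratios carry no interval, and the pairs were chosen after their values were seen.

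In Tconv cells 1 kind of joint recurred among the TRBV20 chains, a search made after the pairs had been seen. Trbv20 ends and Trbd2 begins with the same 4 bases, ggga, and the joint is the whole germline V end followed by the rest of Trbd2. It is shown first with those shared bases in capitals, then with the bases that Trbd2 adds in capitals.
shared bases: tgtggtgctaGGGActgggggggc
Trbd2 bases: tgtggtgctagggaCTGGGGGGGC
This joint was present in 29 of 134 Tconv TRBV20 clonotypes (21.6%; 14.998 to 29.6), 5 of 74 Treg (6.76%; 2.23 to 15.1) and 0 of 31 CD8 TRBV20 clonotypes (0 to 11.2 by the same interval, and 9.68% at 3 counts). The differences from Tconv were -14.9 points for Treg (-24.02 to -4.25) and -21.6 for CD8 (-29.6 to -8.60). Of the 32 Tconv clonotypes with TRBV20 and TRBJ2-4, 18 carried it.

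The joint recurred with different alpha chains. It was found in 34 cells of 32 clonotypes, with 16 distinct CDR3 nucleotide sequences, and each of these had 15 residues. Among the other TRBV20 clonotypes 34 of 205 (16.6%) had that length. With a TRBJ2 segment, which each of the joint sequences had, it was 32 of 153 (20.9%), and in Tconv cells 23 of 83 (27.7%). The joint is defined by 24 fixed bases of CDR3, so its length is not independent of its definition. The 29 cells with a productive alpha chain held 28 distinct alpha CDR3 sequences from 24 alpha V segments. Trbv20 was the leading V transcript in 33 of the 34 cells, and 3 had 2 productive TRB contigs. In Tconv cells with the joint Cd4 had a UMI in 22 of 29 (75.9%; 56.5 to 89.7), and the median number of detected genes was 1734 against 1079 over Tconv members. The 3 sequences seen most often differ after the D bases.
TRBV20 with TRBJ2-4 (11 clonotypes): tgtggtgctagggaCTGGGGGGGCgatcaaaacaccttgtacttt
TRBV20 with TRBJ2-2 (4 clonotypes): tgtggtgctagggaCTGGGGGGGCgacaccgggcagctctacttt
TRBV20 with TRBJ2-5 (3 clonotypes): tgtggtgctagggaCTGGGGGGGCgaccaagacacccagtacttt
The sequence with TRBJ2-4 was in more clonotypes than any other beta chain of the members, 10 in Tconv and 1 in Treg cells, with 11 alpha chains in 10 cells.

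Repeated beta chains were uncommon otherwise. Of 3786 distinct combinations of V, J and CDR3 nucleotides, 218 (5.76%) were in 2 or more clonotypes, 88 (2.32%) also with 2 or more alpha chains, and 41 in 3 or more clonotypes. Of 3712 V, J and CDR3 protein sequences 62 were encoded by 2 or more nucleotide sequences. After the TRBV20 chain, 5 chains were in 5 clonotypes each, among them the TRBV15 chain above. The 2 of them that were found in Tconv cells alone are shown, and then those of 4 clonotypes that had 4 alpha chains, with the middle bases in capitals.
TRBV13-1 with TRBJ1-2 (7 Tconv cells): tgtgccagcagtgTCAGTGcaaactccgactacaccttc
TRBV3 with TRBJ2-7 (5 Tconv cells): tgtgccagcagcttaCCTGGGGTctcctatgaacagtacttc
TRBV12-2 with TRBJ1-1 (3 CD8 cells and 1 Tconv cell): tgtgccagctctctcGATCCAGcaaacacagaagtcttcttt
TRBV13-2 with TRBJ2-5 (3 Treg and 2 Tconv cells): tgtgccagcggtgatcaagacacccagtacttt
TRBV13-2 with TRBJ2-5 (4 Treg cells): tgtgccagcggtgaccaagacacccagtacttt
Both TRBV13-2 sequences have 0 middle bases, so V and J bases account for the whole loop. Of the clonotypes, 30 were in both Treg and Tconv cells (2.14% of Treg and 1.54% of Tconv clonotypes), 11 in CD8 and Tconv and 5 in CD8 and Treg cells. Of the beta chains by V, J and CDR3 nucleotides, 68 were in both Treg and Tconv cells (5.03% of Treg and 3.69% of Tconv chains), 25 in CD8 and Tconv and 13 in CD8 and Treg cells.

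Usage of several V segments, TRBV19 and TRBV20 among them, moved with the number of genes detected in a cell, a split chosen after its values had been seen. In CD8 cells the TRBV19 share was 3.52% of clonotypes at 200 to 1000 genes, then 8.45%, 12.2% and 14.8% in the 3 further bins up to 2500 genes. In the 221 CD8 clonotypes over the limit of 2500 genes, which are no members, it was 23.98% (18.5 to 30.2), 2.56 times the share among members (1.76 to 3.70). Treg cells went from 5.65% (3.04 to 9.47) to 3.39% (1.25 to 7.23) over the same range. Tconv cells had 5.63%, 6.92%, 6.34%, 3.49% and, over the limit, 3.57% (0.435 to 12.3). TRBV20 moved in Tconv cells, with 4.61%, 5.99%, 12.7%, 17.4% and, in 56 clonotypes over the limit, 19.6% (10.2 to 32.4). In Treg cells it was 2.61% (0.963 to 5.59), 6.66%, 4.21%, 6.59% and, over the limit, 7.34% (3.97 to 12.2), and in CD8 cells between 2.92% and 6.25%. Of the V segments with at least 20 clonotypes over both sets, those past 1.5-fold between cells over the limit and members were 8 of 17 (47.1%) in CD8, 6 of 17 (35.3%) in Treg and 11 of 19 (57.9%) in Tconv cells. The interval left out 0 for TRBV19, TRBV13-1, TRBV1 and TRBV15 in CD8 cells, TRBV5 and TRBV29 in Treg cells and TRBV20 in Tconv cells.

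Barcodes with 2 productive TRB contigs moved with detected genes as well, from 4.86% to 20.6% and, over the limit, 17.7% of CD8 cells, and from 3.79% to 20.9% and 16.1% of Tconv cells. Without such barcodes the shares over the limit were 23.7% for TRBV19 in CD8 cells and 19.1% for TRBV20 in Tconv cells. The TRBV19 clonotypes over the limit were many rather than few: 53 clonotypes of 59 cells, with 10 J segments and 41 distinct CDR3 nucleotide sequences, and the largest held 3 cells. Of the 221 clonotypes 40 were also among the members. One TRBV19 sequence with 0 middle bases was in 6 CD8 clonotypes (9 cells) with 4 alpha chains, over members and cells past the limit together.
TRBV19 with TRBJ1-3: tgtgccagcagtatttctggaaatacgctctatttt
With no upper limit on detected genes the CD8 minus Tconv difference of TRBV19 was 6.52 points (4.18 to 9.02), against 3.19 among members. The CD8 minus Tconv difference of TRBV12-2 was 5.11 points (3.38 to 7.04) without the limit. Its CD8 share was 9.15%, 7.58%, 8.26% and 5.47% in the bins up to 2500 genes. Over the limit it was 4.07% (1.88 to 7.59), which was 0.513 times the share among members (0.224 to 1.04).

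**Figure D4:**
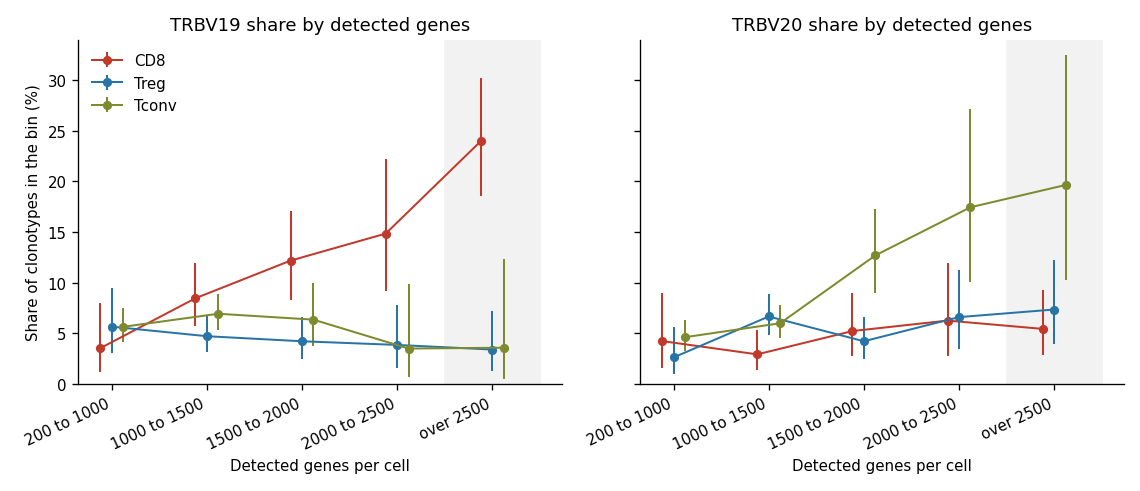
Share of clonotypes (%, y axis) that used TRBV19 (left) and TRBV20 (right) by the number of detected genes per cell (x axis), with 95% Clopper-Pearson intervals; the shaded bin lies over the limit of 2500 genes and holds no member. TRBV19 goes from 3.52% to 23.98% in CD8 cells and TRBV20 from 4.61% to 19.6% in Tconv cells.

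Within Tconv cells a Cd4 UMI went with TRBV20 and TRBV19. TRBV20 was used by 8.73% of 951 clonotypes with and 5.07% of 1025 without a Cd4 UMI (difference, 3.65 points; 1.36 to 5.999), and TRBV19 by 7.57% and 4.78% (2.79 points; 0.604 to 5.02). TRBV12-2 did not differ beyond counting error (1.79% and 2.44%). The TRBV20 share of Tconv cells also rose with detected genes, and the part of depth in these differences was not tested. The 51 members with the invariant TRAV11–TRAJ18 alpha chain of NKT cells, 49 of them Tconv, used TRBV29 in 18, TRBV13-2 in 16 and TRBV1 in 6 cells. Leaving them out moved the CD8 minus Tconv difference of TRBV13-2 from -4.74 to -4.29 points.

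Non-productive chains, which a cell does not display, had another V usage. Kept cells, those in no lineage included, held 507 distinct non-productive chains with a V segment and 4991 productive ones, with a median of 2 and 5 UMIs per contig. Past 1.5-fold in either direction were 11 of 21 V segments (52.4%), of which 5 (23.8%) were higher among non-productive chains. TRBV31 took 13.8% of non-productive (10.9 to 17.1) and 4.63% of productive chains (4.06 to 5.25). TRBV23 took 6.11% (4.19 to 8.57) and 0.601% (0.406 to 0.857), a ratio of 10.2. TRBV10 took 9.27% and 2.64%, TRBV19 10.5% and 6.27%, and TRBV12-1 3.75% and 1.503%. Lower among non-productive chains were TRBV1 (2.76% and 8.46%), TRBV3 (2.96% and 8.31%), TRBV16 (3.55% and 8.92%) and TRBV20 (1.97% and 5.93%). TRBV12-2 (0.789% and 3.13%) and TRBV13-2 (7.30% and 12.7%) were lower too. Each of these 11 differences had an interval that left out 0. TRBV12-1 and TRBV12-2, which were both high in CD8 cells, thus went in opposite directions here. Of the J segments 1 of 12 (8.33%) was past 1.5-fold, TRBJ1-2, with 9.07% and 5.35%. Depth differed between the 2 kinds of chain, and its part in these shares was not tested.

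**Figure D5:**
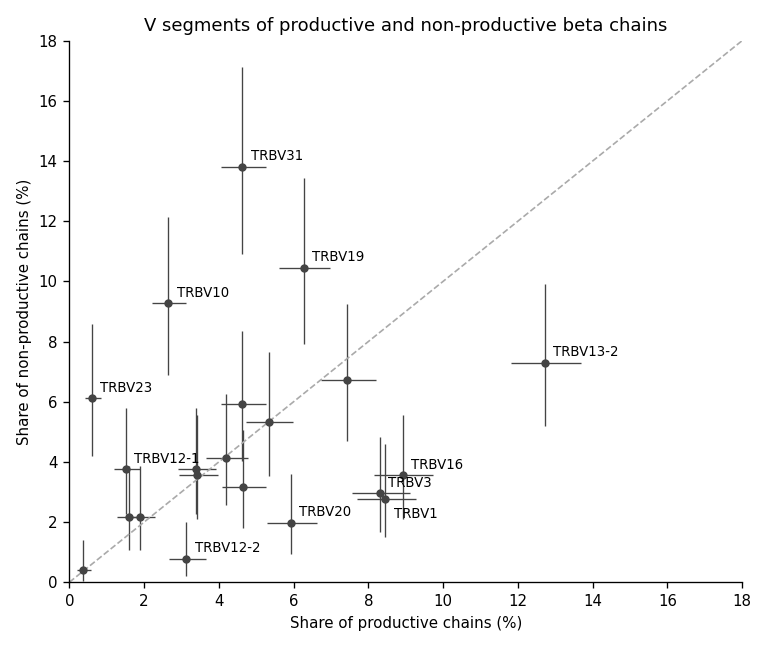
Share of non-productive (y axis, %) against productive TRB chains (x axis, %) for each of 21 V segments in kept cells, with 95% Clopper-Pearson intervals and a dashed line of equal shares. TRBV31 (13.8% against 4.63%), TRBV10 and TRBV23 lie above the line, and TRBV1, TRBV3, TRBV16, TRBV20 and TRBV13-2 lie below it.

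The tumors could be compared in few cells. A tumor was given to cells whose hashtag UMIs all came from tags of 1 tumor. This held for 511 of 4372 members (11.7%), of which 461 had a single tag UMI. B16 had 441 such members and B16–IL-33 had 70. Each tumor had 2 tags, and whether these mark separate tumors or animals is not given in the sources used here. Members with only the tag numbered 1 were 157 in B16 and 33 in B16–IL-33. With only the tag numbered 2 they were 279 and 37. The tags of a tumor were pooled below, so each tumor is read as 1 sample. Of 30 features (segments, the TRBJ2 cluster and the shares of short and long CDR3s), 0 had an interval of the difference that left out 0 over the lineages together, and 1 did in CD8 cells, 1 in Tconv cells and 0 in Treg cells. These were TRBV5, in 2 of 76 B16 and 3 of 15 B16–IL-33 CD8 clonotypes, and TRBJ2-1, in 18 of 199 and 6 of 22 Tconv clonotypes. TRBV13-2 was used by 15.9% of 435 B16 and 18.8% of 69 B16–IL-33 clonotypes (2.98 points; -6.24 to 14.7). The TRBJ2 cluster took 65.1% and 68.1% (3.06 points; -10.1 to 14.7). A difference of the size seen between the lineages was not detectable at this depth. CDR3 had 13.83 ± 1.43 residues (SD over 441 cells) in B16 and 13.99 ± 1.28 (70 cells) in B16–IL-33.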

How the data were processed

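T cells of 1 pool from B16 and B16–IL-33 tumors were read as 1 expression, 1 hashtag and 1 TCR library. The authors deposited the expression and hashtag matrices as unnormalized UMI counts for each gene or tag in each barcode. The deposited TCR table gives, for each assembled contig, its UMI count, its segments and the clonotype that Cell Ranger gave its barcode. The matrix header names Cell Ranger 3.1.0 and the submitters' processing notes name 6.1.1 with mm10, and which of them made the contigs is not given in the sources used here.

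Barcodes with 200 to 2500 detected genes and under 5% mitochondrial UMIs were kept, 9078 of 14035, and 6665 TCR barcodes were in the expression library. Hashtag and expression libraries shared 11756 barcodes. Lineages came from each cell's own UMIs, and no clustering or doublet caller was used. Clonotypes were counted once per lineage with the TRB chain of most summed UMIs. Segments were compared at 20 or more clonotypes over a pair of lineages and called past 1.5-fold. With 1 pool no p-value was computed, and PCR and capture are not covered by the intervals. Named segments had at least 5% of a lineage or were past 1.5-fold. Sequences shown were those of the 2 largest clones of each lineage, ties broken by contig UMIs, and of recurrent chains. The members and lists were chosen with earlier results of these data known. Counting the joined V entry as TRBV13-2, the split by detected genes and the TRBV20 joint were chosen after their values had been seen. V, D and J germline parts came from GENCODE vM21 (GRCm38), and matches were counted from each end of CDR3. Scripts ran in Python 3.11.15 with NumPy 2.4.6, pandas 2.3.3 and SciPy 1.17.1 and were tested on simulated data. Alternatives changed the filters, the contig and lineage minimum, the clonotype definition, the counting unit, the fold and the minimum of clonotypes.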

Additional observations from a re-analysis of the deposited data

Results flagged for a closer look

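Data outside the comparisons held TRB signal that no named contig accounts for. In kept cells the expression library gave 90 UMIs of Trbv24, 14 of Trbv22 and 4 of Trbv21, V genes that no TRB contig is named for. Trbv24 and Trbv22 are pseudogenes in the annotation, and Trbv21 is not. Trbv24 was found in 75 cells, of which 1 had 3 or more UMIs. The contigs of kept cells also included 1825 TRB contigs with a J but no V segment. After duplicates within a cell were removed, 1806 were left, of which TRBJ2-1 was in 601 and TRBJ2-7 in 490. TRBJ2 segments made up 77.5% of them (75.5 to 79.4), against 65.1% of productive chains. There were no control samples, and these values were flagged because they lie above the 3 counts that a count of 0 allows.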

How the results depend on the processing

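The 19 differences of named segments whose interval left out 0 took another value in 147 cases under the alternatives, once per cell aside. The bins of detected genes were not among these alternatives. The sign was kept in 147 and such an interval in 139. It was lost for TRBJ1-4 and TRBV1 as given above, for TRBV1 also with clonotypes by V, J and CDR3 nucleotides, and for TRBV13-3 (CD8 and Treg) under that definition. It was also lost for TRBV19 and TRBV31 against Tconv with a Cd4 UMI, and for TRBV13-2 against Tconv with the joined entry kept apart, an alternative added after seeing the data. Counts of segments past the fold moved as follows. V segments between Treg and Tconv (3) became 5 with contigs of at least 2 UMIs and 0 past 2-fold. V segments past 2-fold were 2 for CD8 and Tconv (9 at 1.5-fold) and 4 for CD8 and Treg (10). J segments between CD8 and Tconv (2) became 1 with contigs of at least 2 UMIs, 1 without invariant cells and 0 past 2-fold. J segments between CD8 and Treg (0) became 2 with no upper limit on genes, 1 without barcodes with 2 TRB chains and 2 once per cell. The causes were not tested. No paired analysis was possible because there was 1 pool without known replicates. The tumors could not be compared with at least 2 tag UMIs, since B16–IL-33 then had 1 member. Depth limits segments under 20 clonotypes, barcodes with 1 contig UMI and cells without a tag.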
